A study of Mus musculus with 8 samples.

Results

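Signals that pass through the MAP kinase ERK switch on genes whose products damp the same pathway, and 9 of these feedback genes were followed in mouse fibro-adipogenic progenitors (FAPs). These are stromal cells of muscle from which fat cells and fibroblasts can arise. They are the dual-specificity phosphatase genes Dusp1, Dusp4, Dusp5 and Dusp6, the Sprouty genes Spry1, Spry2 and Spry4, and the Spred genes Spred1 and Spred2. The genes were chosen by symbol, through their Ensembl IDs in GENCODE M21, and all 9 were found among the 20781 genes of the deposited count table. Bulk RNA sequencing gave 8 libraries, 4 from melatonin-treated and 4 from vehicle-treated cultures. Melatonin is the hormone of the pineal gland, with receptors on the cell surface and antioxidant activity of its own.

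Both groups consisted of FAPs from 3 uninjured leg muscles (tibialis anterior, gastrocnemius, quadriceps) of wild-type male mice, whose strain is given as C57BL/6 or C57BL/6J in different labels. The cells were cultured for 48 h and then received melatonin or vehicle for 24 h. No transgene or deletion is described for either group, and the sources used here give no melatonin concentration, kind of vehicle, age of the mice or pooling of animals. The RNA extraction text names longissimus dorsi, a back muscle, which differs from the 3 muscles named elsewhere. The labels call the libraries biological replicates.

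In the MAP kinase cascade, growth factor receptors activate RAS, RAF, MEK and finally ERK by successive phosphorylation. Dual-specificity phosphatases remove the activating phosphates from MAP kinases. DUSP1, DUSP4 and DUSP5 act in the nucleus, with DUSP5 specific for ERK and DUSP1 also acting on p38 and JNK, while DUSP6 holds and inactivates ERK in the cytoplasm. Sprouty proteins block signalling between receptors and RAS or RAF, and Spred proteins recruit the RAS-inactivating protein neurofibromin. Transcripts of these genes are widely used as a readout of recent ERK activity, and each can also be induced by other pathways.

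The promoters of 3 of the genes are shown because they belong to the gene with the largest decrease (Spry1), to 1 of the 2 genes that rose (Dusp5) and to the gene in which a complete cAMP response element was found (Dusp1). Each sequence runs from 250 bases before to 50 bases after the RefSeq start on GRCm38.p6, and capitals mark motif matches. The Spry1 promoter lies at chr3:37639697-37639996 on the plus strand, that of Dusp5 at chr19:53528895-53529194 on the plus strand and that of Dusp1 at chr17:26508423-26508722 on the minus strand.
Spry1: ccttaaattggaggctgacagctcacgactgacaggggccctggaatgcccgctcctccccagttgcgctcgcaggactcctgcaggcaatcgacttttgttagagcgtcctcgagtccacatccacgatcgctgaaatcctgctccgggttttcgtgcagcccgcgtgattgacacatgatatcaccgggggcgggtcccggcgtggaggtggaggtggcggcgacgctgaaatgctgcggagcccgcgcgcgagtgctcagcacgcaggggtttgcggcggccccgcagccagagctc
Dusp5: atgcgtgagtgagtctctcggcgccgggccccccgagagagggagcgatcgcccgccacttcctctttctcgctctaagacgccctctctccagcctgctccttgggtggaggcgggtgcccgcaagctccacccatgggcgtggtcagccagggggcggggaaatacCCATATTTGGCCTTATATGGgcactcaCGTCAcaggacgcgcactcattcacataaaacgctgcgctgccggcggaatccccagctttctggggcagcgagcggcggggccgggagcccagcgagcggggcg
Dusp1: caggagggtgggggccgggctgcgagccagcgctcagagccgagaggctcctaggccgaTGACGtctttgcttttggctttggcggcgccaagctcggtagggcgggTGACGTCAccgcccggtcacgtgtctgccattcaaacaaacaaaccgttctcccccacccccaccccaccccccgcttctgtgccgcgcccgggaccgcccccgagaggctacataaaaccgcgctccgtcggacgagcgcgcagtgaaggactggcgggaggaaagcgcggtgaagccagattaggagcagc

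Searched on both strands were the cAMP response element TGACGTCA, its 5-base part TGACG, the AP-1 site TGANTCA, the ETS core CCGGAAG, the EGR site GCGNGGGCG and the CArG box, to which serum response factor binds. The CArG box was added after the Dusp5 sequence had been read. The Dusp5 promoter holds a pair of adjoining CArG boxes, which begin 82 and 72 bases before the start, and 1 TGACG match on the opposite strand that begins 55 bases before it. The Dusp1 promoter holds TGACGTCA from 143 bases before the start, with a TGACG match on each strand inside it, and a further TGACG match from 191 bases before the start. Spred2 has 1 TGACG match, and none of the 6 motifs was found in these windows of Spry1, Spry2, Dusp6 or Spred1. Among all 32851 promoters in the RefSeq table, 1.63% hold a CArG box, 1.79% TGACGTCA, 20.8% TGACG, 7.81% the AP-1 site, 8.86% the ETS core and 5.55% the EGR site. Of the 9 genes, 7 have an entry, and Dusp4 and Spry4 do not.

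Library totals ran from 35584931 to 49769873 counts with melatonin and from 45682034 to 52401153 with vehicle. The 9 genes took 0.0267% to 0.0287% of the counts with melatonin and 0.033% to 0.0348% with vehicle, or at least 9494 counts in each library. Levels below are CPM, that is counts set to a common library size with TMM scaling factors. Log2 fold changes run melatonin over vehicle, with a standard error computed from the F statistic of edgeR's test. Melatonin replicate 4 stood apart from the other libraries of its group on the second principal component (13.3% of variance), with a score of -37.7 against 13.8 to 15.3. Markers of FAPs differed widely in level, with Pdgfra at 465 and 570 CPM on average with melatonin and with vehicle. Scarce among them were Pi16, at 5.85 and 8.13 CPM, and Dpp4, at 1.20 and 2.33 CPM. The 8 FAP markers summed to 1629 to 1755 CPM with melatonin and 2401 to 2441 with vehicle, and 4 of them passed as lower (Ly6a, Dcn, Lum and Dpp4). Much of the difference in the sum came from Dcn, at 351 CPM on average with melatonin and 911 with vehicle. The other 4 (Pdgfra, Cd34, Thy1 and Pi16) did not pass, and Thy1 was higher with melatonin, at 491 and 426 CPM. Of 8 macrophage and leukocyte markers 3 passed (37.5%, beside 36.5% of all tested genes), C1qa and Mrc1 as higher and Csf1r as lower. Lyz2 of that list was at 398 and 444 CPM and did not pass. The part of such cells in the results below was not tested.

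All 9 genes passed edgeR's test at the adjusted p threshold of 0.05, 2 higher with melatonin (Dusp4 and Dusp5) and 7 lower. Across all 16565 tested genes 36.5% passed, 18.1% as higher and 18.5% as lower. The 4 melatonin libraries lay wholly above or wholly below the 4 vehicle libraries for each of the 9 genes, and for 37.7% of all tested genes. The median log2 fold change was -0.31 over the 9 genes and 0.01 over all tested genes. In bulk RNA, fewer cells that express a gene and less of its RNA per cell cannot be told apart. Adipocyte markers moved with the treatment, since all 5 (Adipoq, Plin1, Fabp4, Lpl and Cidec) rose and their summed level was 1758 to 2439 CPM with melatonin and 694 to 787 CPM with vehicle. The share of counts from mitochondrially encoded transcripts also differed, at 2.09% to 2.44% with melatonin and 1.05% to 1.3% with vehicle, with no overlap. The part of either in the results below was not tested.

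**Figure D1:**
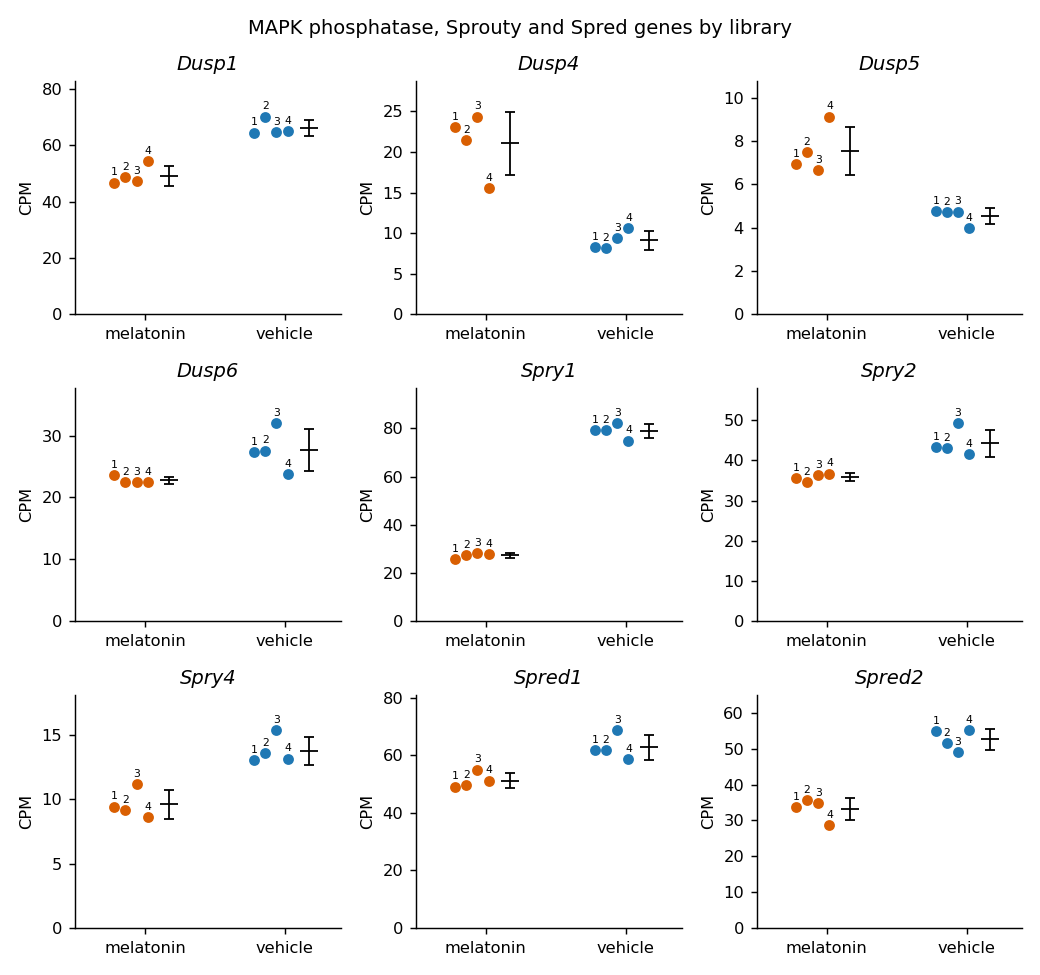
Level of each of the 9 genes in every library, in CPM on a linear axis from 0, with melatonin on the left and vehicle on the right of each panel. Points are single libraries with their replicate number, and the bar beside them is the mean ± SD (n = 4). Dusp4 and Dusp5 are higher with melatonin, the other 7 are lower, and the groups come closest for Dusp6.

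The nuclear phosphatase genes did not move together, as Dusp4 and Dusp5 rose and Dusp1 fell. Dusp4 (ENSMUSG00000031530, GRCm38 chromosome 8, plus strand, 34807297 to 34819894) had 23.0, 21.5, 24.4 and 15.6 CPM in melatonin replicates 1 to 4, against 8.27, 8.15, 9.43 and 10.6 CPM in vehicle replicates 1 to 4. Every melatonin library was above every vehicle library, and melatonin replicate 4 was the lowest of its group. The log2 fold change was 1.21 ± 0.15, a 2.32-fold difference (edgeR adjusted p = 0.00018), and without melatonin replicate 4 it was 1.34. A call at a change of at least that size, in either direction, was made for 7.47% of all tested genes. The 5th and 95th percentiles of the log2 fold change over all tested genes were -1.37 and 0.83.

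Dusp5 (ENSMUSG00000034765, chromosome 19, 53529109 to 53542431 on the plus strand) encodes the phosphatase that is specific for ERK and was the least abundant of the 9 per length with vehicle. Its level was 6.93, 7.47, 6.66 and 9.12 CPM in melatonin replicates 1 to 4, and 4.77, 4.70, 4.73 and 3.97 CPM in vehicle replicates 1 to 4. The groups did not overlap, and melatonin replicate 4, lowest of its group for Dusp4, was the highest here. Dusp5 was 1.66-fold higher with melatonin (0.73 ± 0.13, edgeR adjusted p = 0.0016), with a log2 fold change of 0.64 when melatonin replicate 4 was left out. An annotated antisense gene, AC137853.2, shares exon bases with Dusp5 and was not analysed here.

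Dusp1 (ENSMUSG00000024190, chromosome 17, 26505590 to 26562128 on the minus strand), an immediate early gene whose product inactivates p38, JNK and ERK, was lower with melatonin. It was counted at 46.8, 48.7, 47.2 and 54.5 CPM in melatonin replicates 1 to 4, against 64.6, 70.2, 64.8 and 65.1 CPM in vehicle replicates 1 to 4. All melatonin values were below all vehicle values, with melatonin replicate 4 nearest to them. The log2 fold change was -0.43 ± 0.07 (edgeR adjusted p = 0.0010). The promoter window shown above, 26508423 to 26508722, lies inside the annotated span of Dusp1 and not at its upstream end at 26562128. Merged exons of the whole annotated gene set its level per kb below. Exons of Dusp1 share 11 bases with Ergic1 on the opposite strand, a gene at 232 and 259 CPM with melatonin and with vehicle, and reads from such shared bases cannot be assigned without knowing the use of strand.

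Dusp6, the gene of the cytoplasmic ERK phosphatase (ENSMUSG00000019960, chromosome 10, 99263231 to 99267489 on the plus strand), showed the smallest difference. Its values were 23.6, 22.5, 22.5 and 22.5 CPM in melatonin replicates 1 to 4, and 27.3, 27.6, 32.0 and 23.8 CPM in vehicle replicates 1 to 4. The melatonin libraries were nearly alike, while the lowest vehicle library was only 1.01-fold above the highest melatonin library. The log2 fold change was -0.28 ± 0.092 (edgeR adjusted p = 0.037). This call did not hold when any of 7 of the 8 libraries was left out, the exception being vehicle replicate 4, and it held in 6 of 15 alternatives (adjusted p 0.016 to 0.29).

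The Sprouty genes all fell, Spry1 by far the most. Spry1 (ENSMUSG00000037211, chromosome 3, 37639947 to 37644598 on the plus strand), known in skeletal muscle for keeping satellite cells quiescent, had 25.9, 27.3, 28.3 and 27.8 CPM in melatonin replicates 1 to 4, against 79.4, 79.2, 82.0 and 74.9 CPM in vehicle replicates 1 to 4. The lowest vehicle library was 2.65-fold above the highest melatonin library. Its log2 fold change of -1.53 ± 0.062, 2.89-fold lower with melatonin, had the 18th smallest p of all 16565 tested genes (edgeR adjusted p = 3.6e-07). Leaving out single libraries gave -1.55 to -1.49. An annotated locus of unclear coding status on the opposite strand, Gm42922, shares 710 exon bases with Spry1 and had 123 counts over the melatonin libraries and 331 over the vehicle libraries. The 4 tested satellite cell and myoblast markers did not pass and summed to 26.3 to 97.4 CPM with melatonin and 45.5 to 62.9 CPM with vehicle, and Pax7 and Myf5 were not analysed here.

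Spry2 (ENSMUSG00000022114, chromosome 14, 105891947 to 105896819 on the minus strand) encodes a Sprouty protein that binds the ubiquitin ligase CBL as well as the adaptor GRB2. It had 35.7, 34.6, 36.4 and 36.7 CPM in melatonin replicates 1 to 4, and 43.2, 43.0, 49.2 and 41.6 CPM in vehicle replicates 1 to 4. The groups were separate by a narrow margin of 1.13-fold, and vehicle replicate 3 was the highest. The log2 fold change was -0.31 ± 0.071 (edgeR adjusted p = 0.0075).

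Spry4 (ENSMUSG00000024427, chromosome 18, 38586247 to 38601415 on the minus strand), which inhibits RAF activation, was the least abundant Sprouty gene. Its level was 9.45, 9.19, 11.2 and 8.61 CPM in melatonin replicates 1 to 4, against 13.04, 13.6, 15.4 and 13.2 CPM in vehicle replicates 1 to 4. Replicate 3 was the highest library in both groups, and the groups did not overlap. The log2 fold change was -0.52 ± 0.11 (edgeR adjusted p = 0.0038).

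Both Spred genes were lower with melatonin. Spred2 (ENSMUSG00000045671, chromosome 11, 19924375 to 20024026 on the plus strand) had 33.7, 35.6, 34.8 and 28.7 CPM in melatonin replicates 1 to 4, and 54.8, 51.7, 49.1 and 55.2 CPM in vehicle replicates 1 to 4. The gap between the groups was wider than the range within either, and melatonin replicate 4 was the lowest library. Spred2 fell by 0.67 on the log2 scale (SE 0.083, edgeR adjusted p = 2.0e-04). Spred1 (ENSMUSG00000027351, chromosome 2, 117121374 to 117182279 on the plus strand), the gene mutated in human Legius syndrome, had 49.1, 49.6, 55.1 and 51.2 CPM in melatonin replicates 1 to 4, against 61.9, 61.7, 68.7 and 58.6 CPM in vehicle replicates 1 to 4. The highest melatonin and the lowest vehicle library differed by 1.06-fold, and the log2 fold change was -0.29 ± 0.071 (edgeR adjusted p = 0.0097).

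The size of the small decreases depended on the scaling of the libraries. With library totals in place of TMM factors, the median log2 fold change of all tested genes was 0.17 in place of 0.01. Under library totals 44.3% of all tested genes passed, 5099 as higher and 2237 as lower. Counts given below for library totals stand beside that share. Dusp4, Dusp5, Spry1, Spred2, Dusp1 and Spry4 kept their calls under that scaling, with log2 fold changes of 1.37, 0.89, -1.37, -0.51, -0.27 and -0.36. Spry2, Spred1 and Dusp6 kept their sign and did not pass, at -0.15, -0.13 and -0.12 (edgeR adjusted p of 0.10, 0.16 and 0.29). Relative to the median of all tested genes, the same 3 genes stood at -0.32, -0.30 and -0.29 with library totals.

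**Figure D2:**
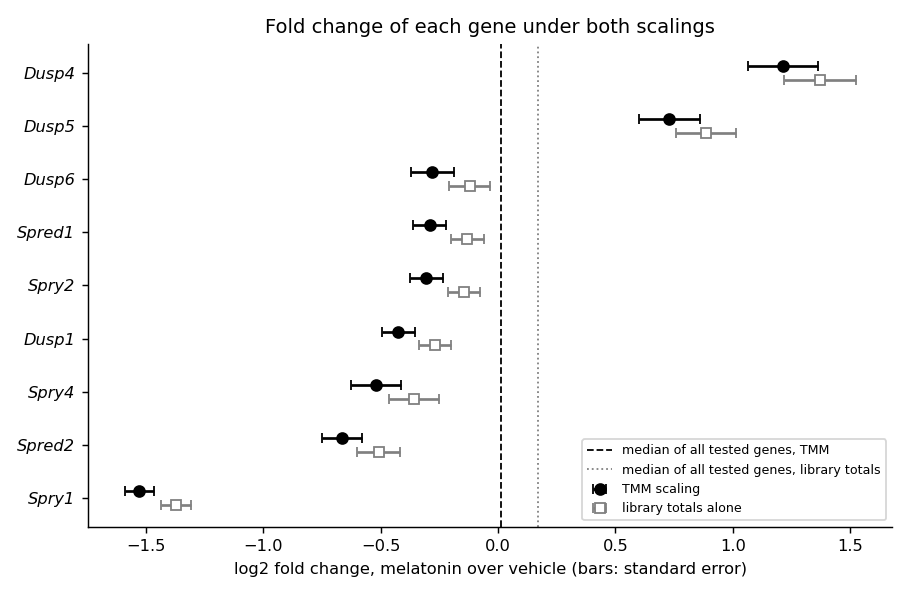
Log2 fold change of each gene, melatonin over vehicle, with its standard error, under TMM scaling (filled circles) and with library totals alone (open squares). Dashed and dotted lines are the medians of all tested genes at 0.01 and 0.17. Dusp4 and Dusp5 lie to the right of both lines, and the other 7 genes to the left of both.

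Levels of different genes were compared as mean CPM per kb of merged annotated exons. With melatonin the order by mean CPM per kb was Spry2 (17.2), Dusp1 (14.9) and Spry1 (9.40 ± 0.36; SD, n = 4), with no overlap of libraries between neighbours. Next followed Dusp4 (7.70), Spred1 (7.56), Dusp6 (7.27) and Spred2 (7.19), each overlapping the next, and then Dusp5 (3.05) and Spry4 (2.02), which did not overlap. With vehicle, Spry1 was the most abundant at 27.1 ± 1.01 CPM per kb (SD, n = 4), followed by Spry2 (21.2) and Dusp1 (20.0), whose libraries overlapped. Spred2 (11.4) came next, then Spred1 (9.25) and Dusp6 (8.83), which overlapped, then Dusp4 (3.32) and Spry4 (2.90), which overlapped as well, and Dusp5 was last (1.84). Spry1 thus stood in the third place with melatonin and in the first with vehicle. Libraries for Dusp4 overlapped those for Dusp6 and both Spred genes with melatonin, and lay below all of them with vehicle.

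Ratios between family members within a library do not depend on library scaling, and 10 pairs were compared by an exact two-sided permutation test over the 8 libraries. The smallest p this exact permutation test can give is 0.0286, and 6 pairs reached it (adjusted over the 10 pairs, p = 0.0476). The adjusted value depends on how many pairs reached that floor, including the 4 phosphatase pairs below, and the pairs share genes. Dusp4 had 0.975, 0.955, 1.08 and 0.692 counts per Dusp6 count in melatonin replicates 1 to 4, and 0.303, 0.296, 0.295 and 0.445 in vehicle replicates 1 to 4. The ratio of these 2 phosphatase genes, one for the nucleus and one for the cytoplasm, was 2.78-fold higher with melatonin. Dusp5 per Dusp6 was higher by 0.997 on the log2 scale. Dusp1 per Dusp4 and Dusp1 per Dusp5 were lower with melatonin, by 3.09-fold and 2.22-fold. All 4 of these pairs had groups that did not overlap. This outcome and its smallest p were already set by the single genes, so these 4 ratios are no separate result. With melatonin, Dusp4 and Dusp5 lay wholly above and Dusp1 and Dusp6 wholly below the vehicle libraries.

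Within the Sprouty genes the balance changed sides. Spry1 had 0.725, 0.790, 0.778 and 0.757 counts per Spry2 count in melatonin replicates 1 to 4, against 1.84, 1.84, 1.67 and 1.80 in vehicle replicates 1 to 4. Each melatonin library thus had fewer Spry1 than Spry2 counts, and each vehicle library had more. The ratio was 2.34-fold lower with melatonin, and Spry1 per Spry4 was 2.01-fold lower, both among the 6 pairs with an exact permutation p of 0.0286.

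The other 4 pairs did not pass, and their groups overlapped. On the log2 scale, melatonin minus vehicle was 0.48 for Dusp4 over Dusp5 (exact permutation p = 0.171), and 0.71 without melatonin replicate 4. It was -0.15 for Dusp1 over Dusp6 (exact permutation p = 0.229), 0.22 for Spry2 over Spry4 and 0.38 for Spred1 over Spred2 (exact permutation p = 0.0571 each).

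**Figure D3:**
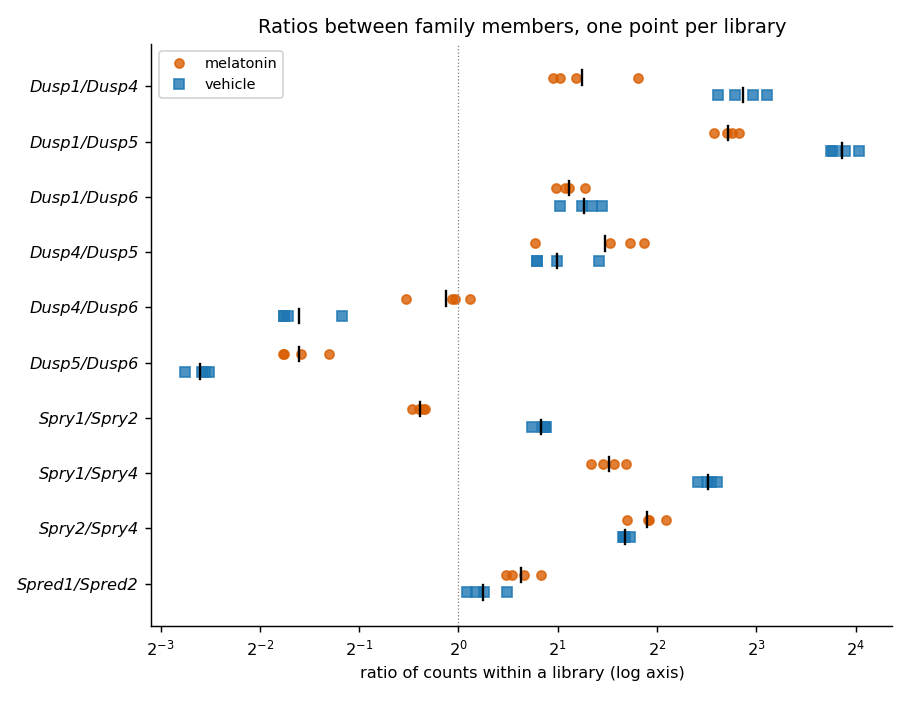
Ratio of counts between 2 genes of a family within each library, on a log axis. Circles are melatonin and squares are vehicle libraries, and short lines mark the mean of the log2 ratios in each group. The groups are apart for Dusp1/Dusp4, Dusp1/Dusp5, Dusp4/Dusp6, Dusp5/Dusp6, Spry1/Spry2 and Spry1/Spry4, and overlap for the other 4 pairs.

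Genes whose transcription is known to follow ERK activity were mostly lower too, with Egr1 and Fos as the exceptions. Of 12 such output genes outside the 9, all 12 passed, 10 lower and 2 higher, against 36.5% of all tested genes, and their median log2 fold change was -0.56. Over 15 alternatives 9 to 12 of them passed. This list, the other lists and the 9 genes were chosen with earlier results of these data known. Their shares beside that of all tested genes are therefore not independent comparisons. Fosl1, which encodes the AP-1 subunit FRA1, had 17.3 ± 1.53 CPM with melatonin and 67.0 ± 6.34 CPM with vehicle (SD, n = 4; edgeR adjusted p = 7.7e-07). Etv4, an ETS factor gene induced by FGF signalling, had 1.87 ± 0.164 CPM with melatonin and 6.08 ± 0.98 CPM with vehicle, and Ccnd1, the cyclin D1 gene, 209 ± 21.6 and 422 ± 40.5 CPM. The other genes that fell were Ier3, Phlda1, Epha2, Epha4, Etv1, Etv5 and Myc.

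The genes that rose were chosen for description after their values were seen. Egr1, an immediate early zinc finger gene, had 83.3 ± 6.5 CPM with melatonin and 43.4 ± 5.35 CPM with vehicle (log2 fold change 0.94 ± 0.097, edgeR adjusted p = 5.7e-05). Fos had 8.62 ± 0.816 CPM with melatonin and 6.63 ± 0.915 CPM with vehicle (0.38 ± 0.12, edgeR adjusted p = 0.036). The groups overlapped for Fos, and its adjusted p ranged from 0.0043 to 0.096 over 15 alternatives. The call for Fos was lost when any single library other than replicate 3 of either group was left out. With library totals 8 output genes were lower and 2 higher.

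A further list held 12 tested genes of the Sprouty family and of receptor-level feedback, together with the pseudokinase genes Trib1, Trib2 and Trib3. Of these 12 genes 7 passed (58.3%, beside 36.5% of all tested genes), all lower and Trib2 and Trib3 among them. The other 5 did not pass, and the list median log2 fold change was -0.41. Spred3, the remaining Spred gene, fell by 1.66 on the log2 scale, with 8.07 ± 0.518 CPM with melatonin and 25.5 ± 2.33 CPM with vehicle (edgeR adjusted p = 1.9e-06). Trib2, a pseudokinase gene, had 21.7 ± 2.31 CPM with melatonin and 46.7 ± 3.91 CPM with vehicle, and Errfi1, whose product inhibits the EGF receptor, had 61.3 ± 5.53 and 105 ± 13.5 CPM. With library totals 5 genes of this list were lower and 2 higher. Spry3 was not analysed here.

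Among 10 other phosphatase genes that act on MAP kinases, 3 passed, all lower, and 7 did not. That share of 30.0% is below the 36.5% of all tested genes. Dusp8, a phosphatase gene for JNK and p38, had 10.7 ± 1.14 CPM with melatonin and 16.3 ± 0.681 CPM with vehicle (-0.61 ± 0.097, edgeR adjusted p = 8.7e-04). Dusp9, for ERK, was scarce at 0.505 ± 0.165 CPM with melatonin and 1.24 ± 0.322 CPM with vehicle. Dusp16, which also acts on JNK and p38, had a log2 fold change of -0.45 ± 0.12 and did not pass with library totals (edgeR adjusted p = 0.079, range 0.0027 to 0.079 over 15 alternatives). The median over this list was -0.12, and 0.04 with library totals, under which 2 genes were lower and 1 was higher.

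Of 8 tested RAF, MEK and ERK kinase genes 3 passed, a share of 37.5% beside 36.5% of all tested genes. Map2k1, the MEK1 gene, was lower at 135 ± 7.19 CPM with melatonin and 228 ± 16.4 CPM with vehicle (-0.75 ± 0.071, edgeR adjusted p = 3.3e-05). Of the list, 2 genes were higher, among them Map2k2, the MEK2 gene, with a log2 fold change of 0.33 ± 0.079. The other 5 did not pass. The list median was -0.03 with TMM factors and 0.12 with library totals. Under library totals 1 gene was lower and 3 were higher, where 44.3% of all tested genes passed, 5099 higher and 2237 lower.

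Adaptors, RAS genes and their regulators had 5 of 18 members lower and 1 higher, a share of 33.3% near that of all genes. Rasa2, a RAS-inactivating protein gene, was lower (-0.51 ± 0.1), as was Spsb1 (-0.35 ± 0.078), while the docking protein gene Gab1 was higher (0.40 ± 0.091). Spsb1 did not pass with library totals (edgeR adjusted p = 0.058, range 4.4e-04 to 0.058), and that scaling left 2 members lower and 3 higher. Kinases of the p38 and JNK branches had 4 of 11 members lower and 1 higher, a share of 45.5% beside 36.5% of all tested genes. With library totals 2 were lower and 1 was higher. The p38 genes Mapk11 (-0.95 ± 0.12) and Mapk13 (-0.97 ± 0.2) were lower and the p38-activating kinase gene Map2k3 higher (0.32 ± 0.072). Of 11 tested growth factor receptor genes 2 passed, a share of 18.2% that is below the 36.5% of all tested genes. Fgfr2 was higher, with 35.4 ± 2.81 CPM with melatonin and 16.8 ± 2.4 CPM with vehicle, and Igf1r was lower (-0.40 ± 0.074). Erbb3 did not pass (0.54 ± 0.2, edgeR adjusted p = 0.057), and its adjusted p ranged from 3.6e-04 to 0.14 over 15 alternatives. It passed with DESeq2 (adjusted p = 0.034), with library totals (0.70, edgeR adjusted p = 0.017) and without melatonin replicate 4 (0.73, edgeR adjusted p = 3.6e-04).

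**Figure D4:**
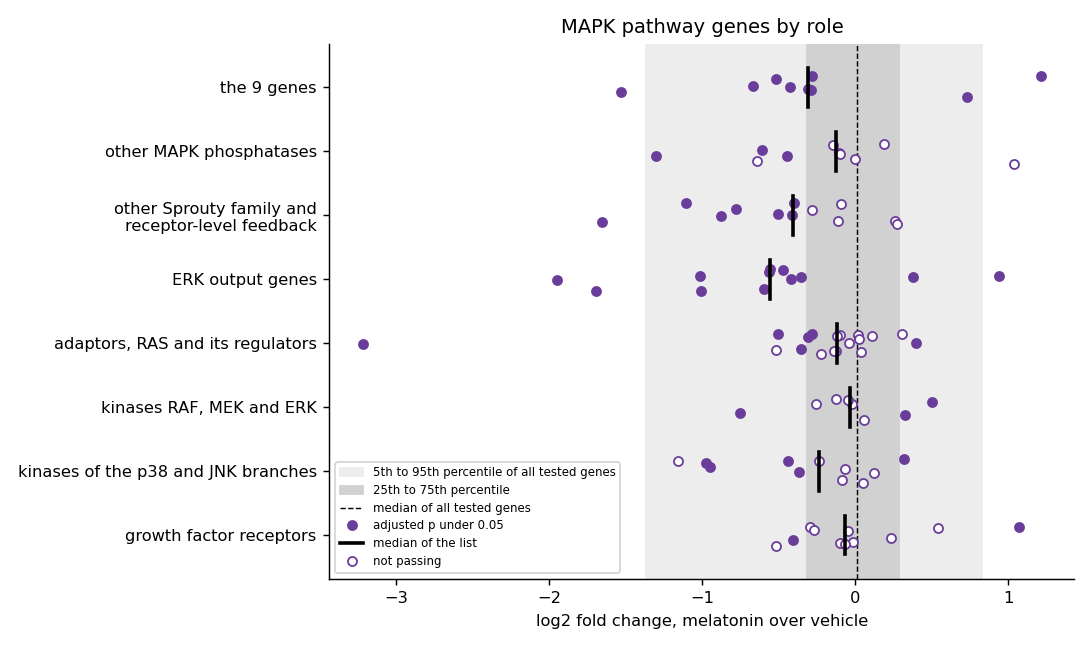
Log2 fold change, melatonin over vehicle, of the 9 genes and of other MAPK pathway genes by role, 1 point per tested gene. Filled points passed at an edgeR adjusted p under 0.05, short lines are list medians and grey bands show the spread of all tested genes. The medians lie at -0.31 for the 9 genes and -0.56 for the ERK output genes, and at -0.03 for the RAF, MEK and ERK kinases.

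Genes with the most similar profile were sought by the root mean square distance between centred log2(CPM + 0.5) values over the 8 libraries, among 16348 tested genes with at least 10 counts on average. For Dusp6 the nearest were March5, Lancl2 and Ccdc25, at distances of 0.0518, 0.0541 and 0.0557. Nearest to Spry2 were Bid, Bckdhb and March5, at 0.0310, 0.0344 and 0.0377. Spry2 and Spred1 were at 0.0388 from each other, closer than any other pair of the 9 genes, and Dusp6 and Spry2 were next at 0.0618. Their log2 fold changes were alike in size, at -0.31 for Spry2, -0.29 for Spred1 and -0.28 for Dusp6. The distance takes in the difference between the groups, so near genes have like fold changes by construction.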

How the data were processed

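RNA was measured by bulk sequencing in 4 melatonin and 4 vehicle libraries. The authors deposited whole-number counts per Ensembl gene. The submitters' processing notes list HISAT2 2.0 and StringTie 1.3.3b, beside Trimmomatic 0.36, FastQC 0.11.2, DESeq2 1.12.4 and bedtools 2.26.0, and the build mm10. Which program made the counts, from which annotation and with which strand setting is not given in the sources used here. Columns prefixed as control were read as vehicle, the only other group. Each deposited gene has at least 11 counts in all, and library totals of 35584931 to 52401153 limit the precision of low genes. Libraries of a group differed by more than sampling noise (chi-square per gene 23.5 to 74.4), which does not show separate animals, and p-values measure only the spread between these libraries.

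GENCODE M21 (GRCm38, also called mm10) named 20720 of 20781 gene IDs. filterByExpr kept 16565 genes. Counts were scaled by TMM (factors 1.05 to 1.08 for melatonin, 0.916 to 0.974 for vehicle) and compared with edgeR 4.0.16, robust quasi-likelihood F-test, group as the only term, with Benjamini-Hochberg adjustment over all tested genes and a threshold of 0.05. Standard error is the log2 fold change divided by the square root of F. Within-library ratios used counts + 0.5. Alternatives were limma-voom (limma 3.58.1), DESeq2 1.42.0, 2 other scalings, 2 other filters, a block for replicate number, and leaving out single libraries.

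The members and lists were chosen with earlier results of these data known. Named by rule were the 9 genes, the 3 genes with the smallest p in each of 7 pathway lists, and the 3 nearest profiles to Dusp6 and Spry2. Other genes named were chosen after their values were seen, and a gene that the rule would name is not reported here.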

Additional observations from a re-analysis of the deposited data

Results flagged for a closer look

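Of 18 groups of 4 libraries, 3 held a library far from the others of its group, where chance gives about 1 in 20. Vehicle replicate 2 was the highest vehicle library for Dusp1 at 70.2 CPM, with a gap to the next that took 0.906 of the group's range. Vehicle replicate 4 was the lowest for Dusp5 at 3.97 CPM (0.914 of the range), and melatonin replicate 1 was the highest for Dusp6 at 23.6 CPM (0.981 of a narrow range).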

How the results depend on the processing

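Dusp1, Dusp4, Dusp5, Spry1, Spry4 and Spred2 kept direction and call under all 15 alternatives. With library totals, Dusp6 (-0.12), Spred1 (-0.13) and Spry2 (-0.15) did not pass, which left 4 of the 9 genes called lower, and 5099 genes were called higher in all, in place of 2992, with 69.5% of calls higher in place of 49.4%. Under that scaling 3 genes of the p38 and JNK list passed in place of 5. Leaving out single libraries gave Dusp6 a log2 fold change of -0.35 to -0.20. No pairing by replicate number was seen. Deviations of same-numbered libraries correlated at -0.07 to 0.04, and no library correlated best with its own number. With so few libraries, this check cannot exclude that cultures were paired. With the replicate number as a block, Dusp6 stood at -0.27 (edgeR adjusted p = 0.079), and 4942 genes passed in place of 6054. The block changed the call of no other of the 9 genes. No within-library ratio changed sign or call with a pseudocount of 1 or 0.1. The ratios kept their sign in a replicate block and with single libraries left out, where the exact test cannot pass. For 28 other named genes, 403 of 419 values kept direction and call, 13 kept only the direction and 3 gained a call. The lowest count behind any of the 9 genes was 198, for Dusp5 in vehicle replicate 4.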
